A study of Mus musculus with 10 samples.

Results

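The complement genes described here are C3, C4b, C2, Cfb, Cfi, Cfd, Serping1, Cd55 and Cd59a. They were chosen by name, with earlier results of these data known, and matched to 9 of the 24062 genes in the count data. RNA was sequenced from the pancreas of 5 wild type (WT) mice and 5 KSR23 mice, both C57BL/6 and taken at postnatal day 5. KSR23 mice come from a cross of mice that carry an IL-23 cassette in the R23 line with mice in which the K14 promoter drives cre-recombinase in keratinocytes, so that these skin cells make the cytokine IL-23 and the cassette is not directed to pancreatic cells. The control mice are labelled wild type and described as littermates. Which mice share a litter, their sex and their cages are not given in the sources used here.

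Complement is a set of blood and membrane proteins that tags microbes and damaged cells. The classical route starts when C1q binds a target and its proteases C1r and C1s cut C4 and C2, whose fragments join into an enzyme that cuts C3. The alternative route builds a second such enzyme from a C3 fragment and factor B, which factor D cuts. Regulators hold both back: C1 inhibitor blocks C1r and C1s, factor I cuts the active C3 and C4 fragments, CD55 speeds the decay of the C3-cutting enzymes, and CD59 blocks the membrane pore. The liver makes most circulating complement, and epithelium, fibroblasts, macrophages and adipocytes make some of it locally.

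C4b has a near copy, C4a, in the same cluster on chromosome 17, so the sequence that separates them matters for its counts. A 75-base stretch, the length of 1 read, from exon 21 of 41 in each gene is shown in the GRCm38 build, minus strand, at chr17:34735430-34735504 for C4b and chr17:34816086-34816160 for C4a. Capitals mark the 13 bases that differ.
C4b: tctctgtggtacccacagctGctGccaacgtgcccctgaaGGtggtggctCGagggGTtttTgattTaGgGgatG
C4a: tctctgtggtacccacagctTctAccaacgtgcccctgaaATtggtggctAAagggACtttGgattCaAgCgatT
Of all 75-base windows of the C4b transcript, 76.5% occur at no other annotated transcript, and the rest are shared with C4a. C4a itself had 0 to 2 counts in WT libraries and 1 to 12 in KSR23 libraries, so the copy held few of the counts in either group.

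The promoter of C3 is shown because C3 was among the members that rose and its window held a match to a motif of C/EBP, a family of factors known for acute phase genes. The window runs from 250 bases before to 50 bases after the start of transcription in RefSeq, on GRCm38.p6 at chr17:57228087-57228386, minus strand. Capitals mark TTGCNNAA, searched on both strands, with its first base at position -45.
C3 promoter: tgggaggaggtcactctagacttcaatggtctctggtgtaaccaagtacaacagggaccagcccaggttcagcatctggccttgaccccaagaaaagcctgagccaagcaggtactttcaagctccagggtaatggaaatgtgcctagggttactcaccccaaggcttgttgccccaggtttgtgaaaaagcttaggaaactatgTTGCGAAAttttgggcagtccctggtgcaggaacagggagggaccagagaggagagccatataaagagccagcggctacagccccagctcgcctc
The same motif was found in 10.8% of the 32851 mouse promoter windows of this length. The Cd59a window, on chromosome 2, held 1 match to the interferon motif called ISRE at position -187, which 3.44% of windows hold. The windows of Cfd and Cd55 held no match to either of these motifs, to TTCNNNGAA (8.3% of windows) or to the NF-kB motif (4.51% of windows). Of the motifs searched, the C3 window held only the C/EBP match and the Cd59a window only the ISRE match. The promoter set used here had no window for C4b, C2, Cfb, Cfi or Serping1. These members, all higher in KSR23 mice, were therefore not searched for any motif.

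In the GENCODE M21 annotation of GRCm38 the members are protein-coding genes on 5 chromosomes, with C4b, Cfb, C2 and C3 on chromosome 17. C4b lies at chr17:34728380-34743882 (minus strand, 41 exons), Cfb at chr17:34856374-34862518 (minus, 18 exons), C2 at chr17:34862604-34898265 (minus, 18 exons) and C3 at chr17:57203970-57228136 (minus, 41 exons). Cfi lies at chr3:129835884-129875332 (plus, 14 exons), Cfd at chr10:79890853-79892655 (plus, 5 exons) and Serping1 at chr2:84765387-84775444 (minus, 8 exons). Cd55 lies at chr1:130439027-130462744 (minus, 10 exons) and Cd59a at chr2:104095801-104115354 (plus, 5 exons). Cfb and C2 stand 85 bases apart and share most of their windows with an annotated read-through gene, Gm20547, that spans both, so the split of reads between them follows the authors' gene models. Cd55 had 90.6% and Cd59a 98.3% of its windows unique apart from overlapping genes, with the rest shared with their copies Cd55b and Cd59b.

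The libraries held 26830235 to 33189132 gene counts in WT mice and 16715976 to 57784136 in KSR23 mice. KSR23 replicate 3 was the shallowest and stood apart from the other KSR23 mice on the second principal component (33.4 against -13.3 to -2.3). Reads that aligned to more than 1 place were 49.6% to 53.7% of the tally in WT and 38.5% to 42.5% in KSR23 libraries, and their part in the results was not tested. Il23a, which encodes the IL-23 subunit p19, had 1 to 9 counts in WT mice and 21 to 48 in KSR23 mice. Il12b, which encodes the subunit p40, had 0 to 7 and 3 to 13 counts, and the groups overlapped. Levels below are counts per 1000000 counts of the library (CPM) on TMM-scaled library sizes, and fold changes and adjusted p-values (Benjamini-Hochberg) come from the quasi-likelihood fit of edgeR over the 13882 genes that had 5 or more counts in every library. In whole tissue, fewer cells of a type and less RNA per cell cannot be told apart.

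Of the 9 members, 8 had enough counts for the test and Cfd did not. C4b, Cfi, Cfb, C3, Serping1 and C2 were higher in KSR23 mice, and Cd55 and Cd59a, both inhibitors on the cell surface, were lower. Among all genes tested, 31.0% were called either way, 16.2% higher and 14.8% lower. The median log2 fold change of the 8 members was 1.04, against -0.01 over all genes tested. In 5 members every KSR23 mouse lay above every WT mouse, in 1 every KSR23 mouse lay below, and in 2 the groups overlapped, where 10.7% of all genes tested lay wholly above and 8.74% wholly below, 19.4% in all. A log2 fold change of at least 1 was called in 4 members, against 2.95% of all genes tested, and of at least 3 in 2 members, against 0.166%. Since the members were chosen with earlier results of these data known, these shares describe the list and do not test it. Without KSR23 replicate 3 the counts of calls were again 6 and 2, with log2 fold changes of 1.72 for C3, 4.58 for C4b, 0.44 for C2, 2.60 for Cfb, 3.44 for Cfi, 0.40 for Serping1, -0.87 for Cd55 and -0.56 for Cd59a.

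**Figure D1:**
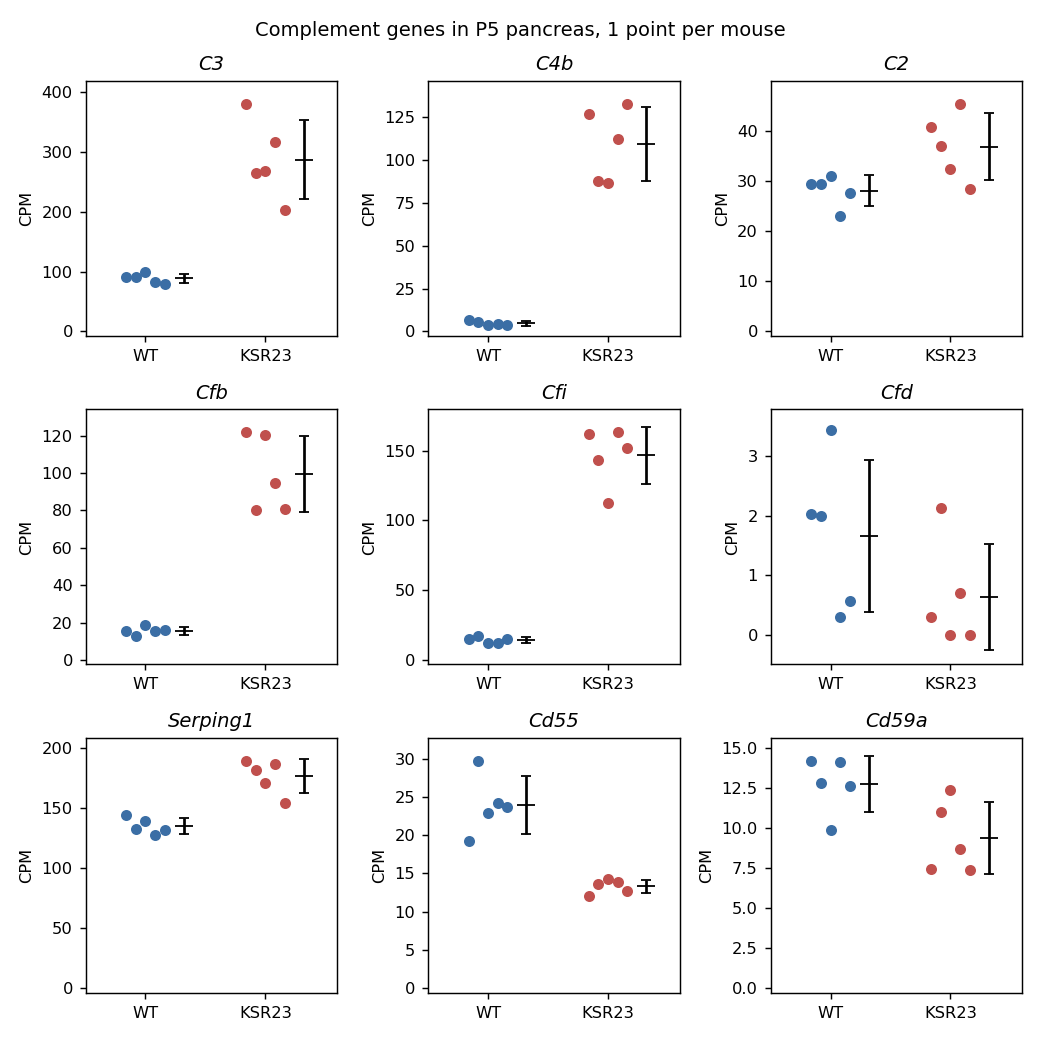
Level of each of the 9 complement genes in CPM, 1 point per mouse, in WT (blue) and KSR23 (red) pancreas, with the group mean and SD (n = 5) beside the points. The KSR23 points of C4b lie between 86.6 and 133 CPM, all above the WT points at 3.61 to 6.94 CPM, and the points of Cfd overlap.

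C3 is the protein on which all routes of activation meet. Its level was 91.8, 91.1, 99.3, 82.5 and 79.2 CPM in the 5 WT mice. In the KSR23 mice it was 380, 265, 269, 316 and 204 CPM. The groups did not overlap, and KSR23 replicate 1 was the highest. The mean went from 88.8 ± 8.0 to 287 ± 65.8 CPM (SD, n = 5), with a log2 fold change of 1.69 (SE 0.123, edgeR adjusted p = 8.21e-09). Of the genes tested, 133 had a larger log2 fold change than C3.

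C4b encodes mouse C4, the first substrate of the classical route. In WT mice its level was 6.94, 5.46, 3.86, 4.20 and 3.61 CPM, and its mean per transcript length was the lowest of the members. In KSR23 mice it was 127, 87.7, 86.6, 112 and 133 CPM, so the lowest KSR23 mouse was far above the highest WT mouse. The mean went from 4.82 ± 1.38 to 109 ± 21.4 CPM (SD, n = 5), with a log2 fold change of 4.50 (SE 0.168, edgeR adjusted p = 8.84e-13), a 22.7-fold rise that 10 of the genes tested exceeded. WT replicates 1 and 2, which had the highest C4b of their group, also stood apart in Reg3b, a gene of the Reg family of secreted lectins, at 692 and 729 CPM against 4.73 to 14.6 CPM in the other WT mice. Without these 2 mice the log2 fold change of C4b was 4.81 (edgeR adjusted p = 1.07e-10), and the other members kept their calls except Cd59a (adjusted p = 0.117).

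C2 encodes the protease partner of C4 in the classical enzyme. Its level was 29.3, 29.3, 31.0, 23.0 and 27.5 CPM in WT mice and 40.8, 36.9, 32.4, 45.4 and 28.5 CPM in KSR23 mice. KSR23 replicate 5 lay within the WT range. The mean went from 28.0 ± 3.08 to 36.8 ± 6.68 CPM (SD, n = 5), with a log2 fold change of 0.39 (SE 0.112, edgeR adjusted p = 0.0127). In the exact two-sided permutation test over every split of the mice, p was 0.0317, and without any 1 of the WT mice or without KSR23 replicate 4 it was 0.0556 to 0.0794.

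Cfb encodes factor B, the counterpart of C2 in the alternative route, and lies beside it on the chromosome. Its level was 15.4, 12.6, 18.5, 15.3 and 16.1 CPM in WT mice. In KSR23 mice it was 122, 80.2, 120, 94.7 and 80.6 CPM, with no overlap. The mean went from 15.6 ± 2.11 to 99.5 ± 20.5 CPM (SD, n = 5), with a log2 fold change of 2.67 (SE 0.129, edgeR adjusted p = 2.99e-11). Within a mouse, the log2 ratio of C2 to Cfb went from 0.85 ± 0.24 in WT to -1.43 ± 0.34 in KSR23 mice, a difference of -2.28 (exact two-sided permutation p = 0.00794, the smallest that 5 against 5 mice can give, 0.0119 adjusted over 3 ratios). C2 had more counts than Cfb in every WT mouse and fewer in every KSR23 mouse.

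Cfi encodes factor I, a soluble regulator that the liver releases into the blood. Its level was 14.8, 17.4, 11.8, 12.4 and 15.3 CPM in WT mice and 162, 143, 113, 163 and 152 CPM in KSR23 mice. The groups did not overlap, and KSR23 replicate 3 was the lowest of its group. The mean went from 14.3 ± 2.25 to 146 ± 20.6 CPM (SD, n = 5), with a log2 fold change of 3.36 (SE 0.116, edgeR adjusted p = 4.54e-13), and 17 genes tested had a larger one.

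Cfd encodes factor D, also called adipsin, which adipocytes make in quantity. The WT libraries held 58, 58, 98, 9 and 15 of its counts. The KSR23 libraries held 12, 72, 0, 28 and 0, so 2 of them had none. A count of 0 allows up to 0.168 CPM in KSR23 replicate 3 and 0.0536 CPM in KSR23 replicate 5, taking 3 counts as the limit and counting error alone. The groups overlapped in part, with the 2 KSR23 mice at 0 below every WT mouse and WT replicate 3 above every KSR23 mouse (1.66 ± 1.28 and 0.626 ± 0.89 CPM, SD, n = 5, exact two-sided permutation p = 0.167), and the difference did not pass the test. Under 2 looser filters the log2 fold change was -1.39 with edgeR adjusted p of 0.191 and 0.207.

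The summed level of 8 adipocyte markers, most of it Fabp4, was 90.6 to 139 CPM in WT mice and 35.4 to 64.5 CPM in KSR23 mice. Of these, 2 passed the filter, with Fabp4 lower (log2 fold change -1.32, edgeR adjusted p = 6.09e-07) and Lipe not called (0.18, adjusted p = 0.418). Lep had 0 counts in every KSR23 mouse, and Adipoq, the adiponectin gene, had 27 to 250 counts in WT mice and 0 to 116 in KSR23 mice. KSR23 replicates 3 and 5, with 0 Cfd counts, also had 0 Adipoq counts. WT replicate 4, with 9 Cfd counts, had a marker sum of 90.6 CPM and KSR23 replicate 2, with 72, one of 64.5 CPM. Adipoq (27), Plin1 (13) and Cidec (10) counts were the lowest of the WT mice in WT replicate 4. In KSR23 replicate 2 they were the highest of the KSR23 mice (116, 62 and 56). In counts, Fabp4 and Plin4 were not the lowest in WT replicate 4, nor Fabp4 and Lipe the highest in KSR23 replicate 2. The part of these cells in the Cfd values was not tested.

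**Figure D2:**
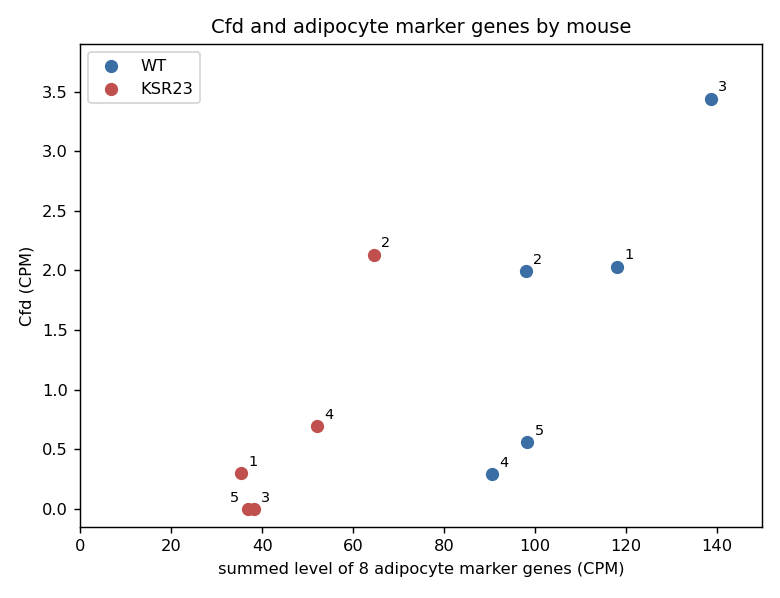
Cfd in CPM against the summed CPM of 8 adipocyte marker genes, 1 point per mouse with its replicate number, in WT (blue) and KSR23 (red) pancreas. The KSR23 mice lie between 35.4 and 64.5 CPM of marker signal and the WT mice between 90.6 and 139 CPM, most of it Fabp4 in every mouse.

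Serping1 encodes C1 inhibitor, which holds back C1r and C1s. It had the highest level per length of the members in either group. In WT mice it was at 144, 133, 140, 128 and 132 CPM, and in KSR23 mice at 190, 182, 171, 187 and 155 CPM. The groups did not overlap, although the rise from 135 ± 6.53 to 177 ± 14.3 CPM (SD, n = 5) was small, with a log2 fold change of 0.39 (SE 0.0673, edgeR adjusted p = 0.000289).

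Cd55 encodes the membrane protein that speeds the decay of the C3-cutting enzymes. Its level was 19.2, 29.7, 22.9, 24.1 and 23.6 CPM in WT mice and 12.1, 13.6, 14.3, 13.9 and 12.7 CPM in KSR23 mice. The highest KSR23 mouse lay under the lowest WT mouse. The mean fell from 23.9 ± 3.78 to 13.3 ± 0.905 CPM (SD, n = 5), with a log2 fold change of -0.85 (SE 0.104, edgeR adjusted p = 6.03e-06). Cd55b, its near copy, had 5 to 11 counts in WT mice and 2 to 11 in KSR23 mice.

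Cd59a encodes the membrane protein that blocks the pore. Its level was 14.2, 12.8, 9.91, 14.1 and 12.6 CPM in WT mice and 7.45, 11, 12.4, 8.67 and 7.41 CPM in KSR23 mice. WT replicate 3 lay among the KSR23 mice. The mean went from 12.7 ± 1.74 to 9.38 ± 2.22 CPM (SD, n = 5), with a log2 fold change of -0.46 (SE 0.145, edgeR adjusted p = 0.0229). The call was lost in 8 of 20 other settings, with adjusted p of 0.0569 without WT replicate 1, 0.0620 without WT replicate 4, 0.0562 without KSR23 replicate 1, 0.0501 without KSR23 replicate 4 and 0.0638 without KSR23 replicate 5. Its copy Cd59b was also lower, at 33 to 52 counts in WT mice and 9 to 18 in KSR23 mice (log2 fold change -1.79, SE 0.283, edgeR adjusted p = 0.000104). The log2 ratio of Cd55 to Cd59a in the same mouse was 0.90 ± 0.33 in WT and 0.53 ± 0.26 in KSR23 mice, a difference of -0.37 that did not pass the exact two-sided permutation test (p = 0.0873).

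**Figure D3:**
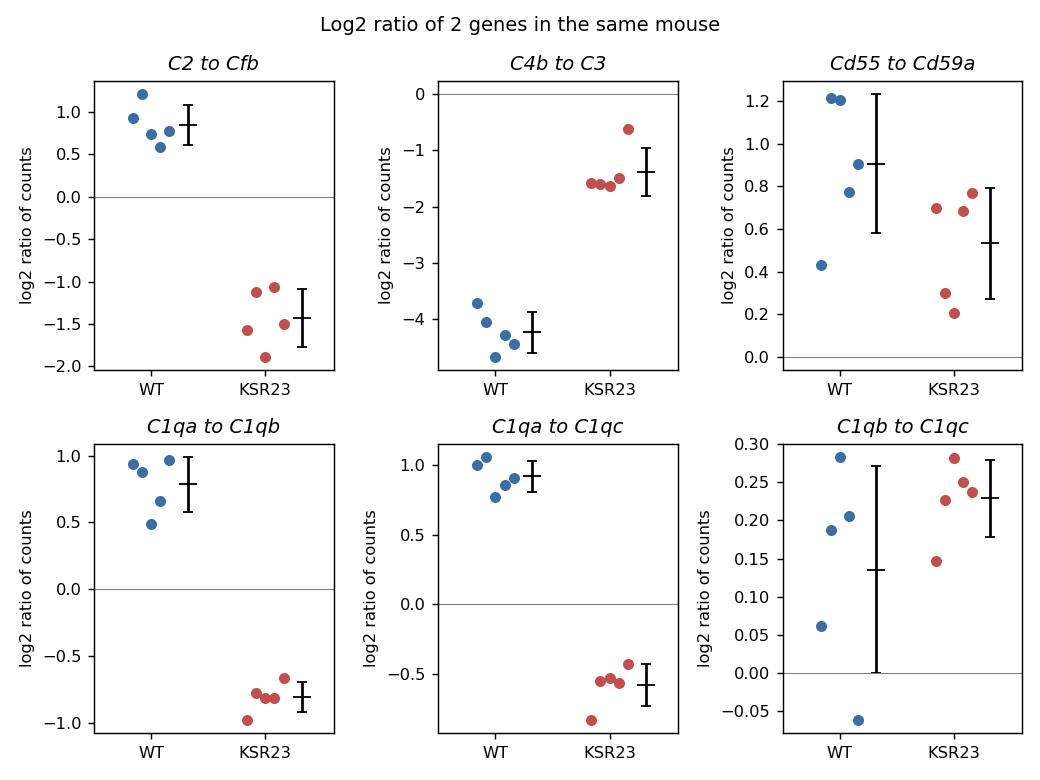
Log2 ratio of the counts of 2 genes in the same mouse, 1 point per mouse, with mean and SD (n = 5), for 3 pairs of members (top) and 3 pairs of C1q genes (bottom). C2 to Cfb lies above 0 in WT and below 0 in KSR23 mice, and C4b to C3 rises by 2.85 on the log2 scale.

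C4b moved further than C3. The log2 ratio of C4b to C3 was -4.24 ± 0.37 in WT and -1.39 ± 0.43 in KSR23 mice, a difference of 2.85 (exact two-sided permutation p = 0.00794, 0.0119 adjusted over 3 ratios). When levels were set per transcript length (CPM per kb), Serping1 led in both groups at 76.5 ± 3.69 and 100.0 ± 8.12. C3 was second in WT mice at 17.3 ± 1.56, followed by C2 at 10.6 ± 1.17, Cd55 at 9.44 ± 1.49, Cd59a at 7.05 ± 0.964, Cfi at 6.89 ± 1.09 and Cfb at 5.70 ± 0.771. From C2 to Cfb each overlapped the next one in its range over mice, and Cfd at 1.80 ± 1.38 overlapped C4b at 0.895 ± 0.257. In KSR23 mice the order was Serping1, Cfi at 70.5 ± 9.88, C3 at 55.8 ± 12.8, Cfb at 36.4 ± 7.49, C4b at 20.3 ± 3.99, C2 at 13.9 ± 2.53, Cd55 at 5.25 ± 0.357, Cd59a at 5.20 ± 1.23 and Cfd at 0.680 ± 0.965. Cfi, C3 and Cfb, then C4b and C2, then Cd55 and Cd59a overlapped their neighbours in that order.

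**Figure D4:**
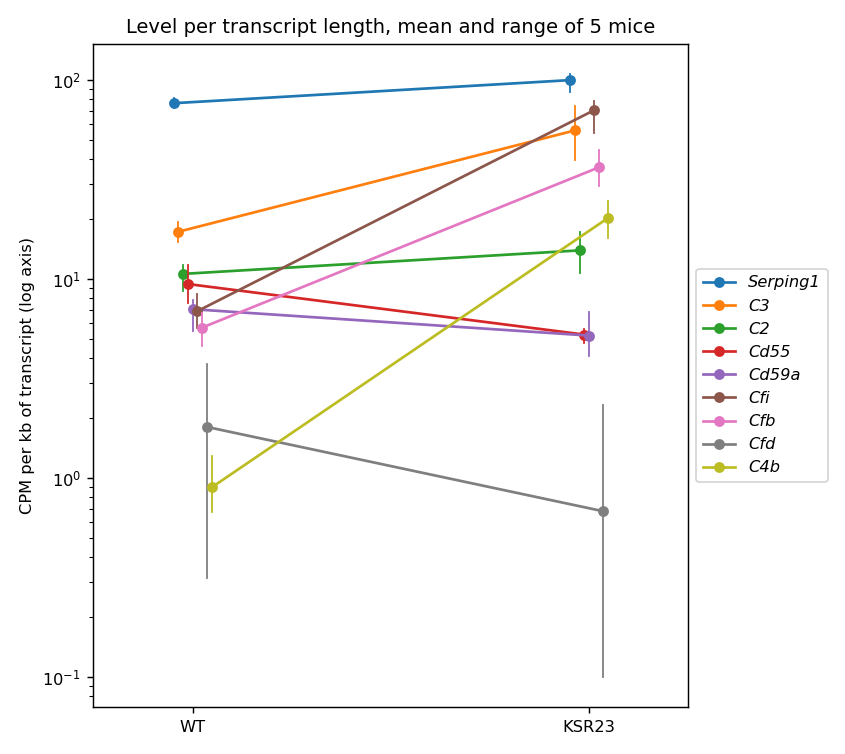
Level per transcript length (CPM per kb, log axis) of the 9 complement genes in WT and KSR23 pancreas, with the mean and the range over 5 mice. The line of C4b climbs from the lowest place in WT mice, and the Cfd range in KSR23 mice reaches 0, which is drawn at the foot of the axis.

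Of 48 other complement genes listed, 47 were in the files and 23 had enough counts for the test. Of these, 10 were higher, 4 lower and 9 not called, with a median log2 fold change of 0.36, where 16.2% of all genes tested were higher and 14.8% lower. This list, too, was chosen with earlier results of these data known. Among the genes that start the classical route, 4 of 5 were higher: C1ra and C1s1, which encode its proteases, at 0.79 (edgeR adjusted p = 4.32e-06) and 0.53 (1.88e-05), and C1qb and C1qc, chains of C1q, at 0.80 (2.47e-06) and 0.71 (1.74e-05). C1qa, the gene of the third C1q chain, was lower at -0.80 (edgeR adjusted p = 4.75e-07). The 3 lectin route genes tested (Fcna, Colec11 and Masp1) and the 2 terminal genes tested (C8b and C8g) were not called, although Fcna was called without KSR23 replicate 2 and C8b without WT replicate 1.

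The chains of C1q are made together from neighbouring genes on chromosome 4, and each of their transcripts has unique windows throughout. C1qa was at 104, 86.1, 86.0, 90.9 and 103 CPM in WT mice and 51.4, 55.7, 58.7, 57.6 and 46.9 CPM in KSR23 mice. C1qb was at 54.2, 46.9, 61.2, 57.6 and 52.9 CPM in WT mice and 101, 95.6, 103, 101 and 74.3 CPM in KSR23 mice. Both sets were without overlap, in opposite directions. The log2 ratio of C1qa to C1qb, computed after these values were seen, went from 0.79 ± 0.20 to -0.81 ± 0.11 (SD, n = 5), and that of C1qb to C1qc from 0.14 ± 0.14 to 0.23 ± 0.05. They are given as a description, since the opposite directions of C1qa and C1qb fix the first.

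Regulators outside the members moved in both directions. Clu, which encodes clusterin, rose from 912 ± 31.6 to 2363 ± 366 CPM (SD, n = 5), and Cpn1, a subunit of the carboxypeptidase that inactivates the C3a and C5a fragments, from 43.1 ± 2.70 to 140 ± 15.8 CPM. Vtn, which encodes vitronectin, fell from 286 ± 27.7 to 27.3 ± 3.68 CPM. Of the membrane regulators, Susd4 rose (0.88, edgeR adjusted p = 0.000487), and Cr1l, the rodent inhibitor Crry, was not called (-0.12, adjusted p = 0.282). Of 5 tested genes listed as receptors, C3ar1 (0.78, edgeR adjusted p = 0.000217), C5ar1 (0.53, 0.00220) and Itgam (0.88, 0.00686) were higher and Cd93 was lower (-0.59, 0.000939).

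**Figure D5:**
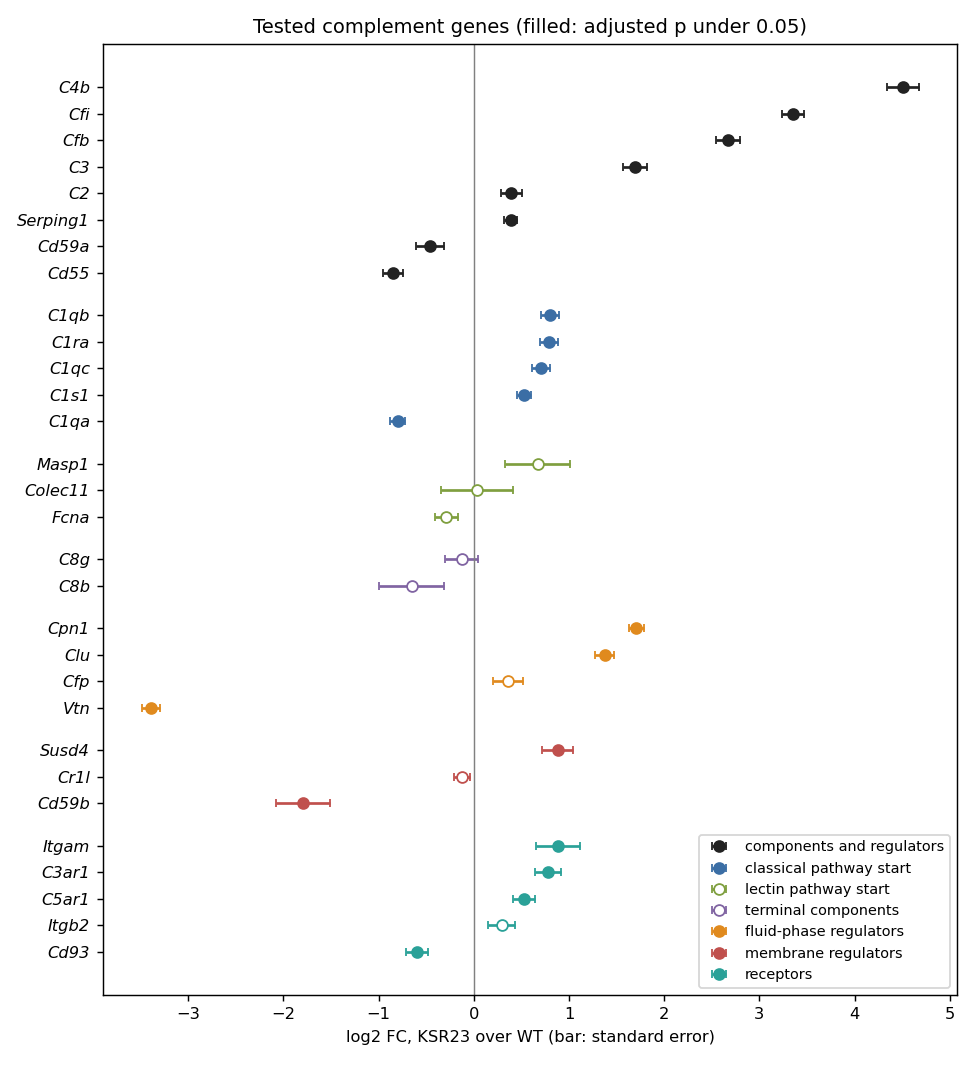
Log2 fold change of tested complement genes, KSR23 over WT, with standard error bars, grouped by role and filled where the adjusted p was under 0.05. C4b at 4.50 is the highest point and Vtn at -3.39 the lowest, and the Cd55 and Cd59a points lie left of 0.

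Some marker lists of the cells in the tissue differed between the groups and others hardly did, and their part in the results was not tested. The counts of markers below stand beside 16.2% of all genes tested called higher and 14.8% called lower. Duct markers were higher in 5 of 6 (summed level 931 to 1044 CPM in WT and 1541 to 1702 CPM in KSR23 mice). Most of this sum was Spp1, at a mean of 754 CPM in WT and 1308 CPM in KSR23 mice. Krt19 was the duct marker not called (log2 fold change -0.05, edgeR adjusted p = 0.663). Acinar markers were lower in 4 of 6, higher in 1 and not called in 1 (200600 to 223700 and 149900 to 184700 CPM). Macrophage markers were higher in 5 of 7 (242 to 323 and 266 to 486 CPM) and neutrophil markers in 5 of 7 (12.2 to 44.2 and 41.1 to 425 CPM). The 425 CPM was KSR23 replicate 3, and the next KSR23 mouse summed to 98.5 CPM. For the macrophage list, the 266 CPM was KSR23 replicate 5, and the other KSR23 mice summed to 428 to 486 CPM. Of 8 hepatocyte markers 3 were tested, with Alb and Ttr lower and Apoa1 not called, and a list sum of 146 to 183 CPM in WT and 39.1 to 49.6 CPM in KSR23 mice that was mostly Ttr (161 ± 17.4 and 37.9 ± 2.61 CPM, SD, n = 5), a gene that islets also express. Among the untested ones, Ahsg had 4 to 10 counts in WT and 17 to 153 in KSR23 mice, Fgb 1 to 4 and 8 to 38, and Apoh 0 and at most 6. Islet markers were lower in 4 of 5 and higher in 1, and lymphocyte markers lower in 1 of 4 (Cd3e), while the untested Cd3d had 2 to 5 counts in WT and 11 to 30 in KSR23 mice and Cd8a 0 and 1 to 4. The stroma, endothelium and mesothelium lists held 1, 2 and 0 higher and 1, 2 and 1 lower of 7, 5 and 6.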

How the data were processed

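RNA of P5 mouse pancreas (5 WT, 5 KSR23) was made into cDNA with an oligo-dT kit from 100 pg of total RNA (15 PCR cycles, then 12 for the library) and sequenced as single 75-base reads without molecular identifiers. The deposited values are counts, whole reads per gene, which the authors made with TopHat2 2.1.0 (mm10) and HTSeq 0.6.1p1, per the submitters' processing notes, by strict intersection with the models of protein-coding genes. The annotation release and the strand setting are not given in the sources used here, so reads of a gene and of an overlapping gene on the other strand may not be told apart. Tally lines that name no gene were left out: not unique alignments (38.5% to 53.7%), no feature (2.69% to 3.28%) and ambiguous reads (0.49% to 0.65%).

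Counts were tested with edgeR 4.0.16 in R 4.3.3 (quasi-likelihood F test, TMM, Benjamini-Hochberg) on 13882 genes with 5 or more counts in every library, with all 10 mice and no covariate, and calls at an adjusted p under 0.05. The standard error is the log2 fold change divided by the root of F. Ratios added 0.5 counts, and mean log2 CPM added 0.1 CPM. Single values were tested by the exact two-sided permutation test over every split of the mice. Within groups, the lowest chi-square per degree of freedom between libraries was 11.8, so none was a copy of another up to counting error. This value cannot exclude a further library made from the same mouse. Same-numbered mice had correlations of -0.111 to 0.066 in their deviations from the group means. Such values cannot show whether they share a litter or day. Unique windows were 75-base stretches matched to all GENCODE M21 transcripts on both strands, and promoters came from RefSeq. Ly6g was not analysed here, and some listed complement genes enter the counts but are not reported here.

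The members and the gene lists were chosen with earlier results of these data known. The genes named were the members, other complement genes, their chromosome 17 neighbours and copies, response genes, cell type markers, the transgene subunits, and the 5 genes most like C3 and the 5 most like Cd55, the called member with the lowest log2 fold change. Alternatives were DESeq2 1.42.0, a likelihood ratio test, other size factors and filters, a test against a log2 fold change of 0.5, a replicate block, and mice left out. The limits given for counts of 0 cover counting error only, while standard errors and SDs also hold the spread between mice.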

Additional observations from a re-analysis of the deposited data

Results flagged for a closer look

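The log2 ratio of C4b to C3 in KSR23 replicate 5 was -0.62, against -1.63 to -1.50 in the other 4 KSR23 mice, so 1 mouse lay far from the rest of its group. This mouse had the lowest C3 (204 CPM) and the highest C4b (133 CPM) of the KSR23 mice. Of 24 groups of 5 mice looked at in this way, 1 was singled out, where chance singles out about 1.2.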

How the results depend on the processing

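In 20 other settings no member changed direction, and C3, C4b, Cfb, Cfi and Cd55 were called in each. Members called higher were 6 in each setting but the test against a log2 fold change of 0.5, where 4 were left (C2 and Serping1 were lost). Members called lower went from 2 to 1, with Cd59a lost, with library size alone, with the test against 0.5, and with WT replicates 1 and 2 left out together (adjusted p = 0.117), and lay between 1 and 2 when single mice were left out. Over all genes, 2250 were higher and 2049 lower. The counts were 437 and 263 with the test against 0.5, which also left 4 of the other complement genes higher, and 1161 were lower with library size alone, a setting that shifted the median log2 fold change of all genes to 0.09. Leaving out 1 mouse gave 1846 to 2210 higher and 1651 to 1973 lower.

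In the exact two-sided permutation tests, the C2 difference in mean log2 CPM ranged from 0.30 to 0.47 without 1 mouse (p up to 0.0794). The Cd59a difference was -0.36 with library size alone (exact permutation p = 0.0873) and -0.56 to -0.38 without 1 mouse, with p from 0.0635 to 0.0794 without WT replicate 1, 2, 4 or 5 or KSR23 replicate 1, 4 or 5. The difference in the Cd55 to Cd59a ratio was -0.49 to -0.29, and passed the threshold without WT replicate 1 (-0.49, exact permutation p = 0.0159). With the replicate block, 6 members were higher and 2 lower, and over all genes 1998 and 1751, and no member's call changed. The replicate numbers give no shared litter or day. Where a cause is not named here, the cause was not tested. Leaving out KSR23 replicate 5 brought Cfp and Itgb2 past the threshold, and leaving out WT replicates 1 and 2 together lost Itgam.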

Other observations

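Some complement genes with too few counts for the test stood apart between the groups, and were picked for that after their values were seen, so they are described without a test. C6, a component of the membrane pore, had 0 to 5 counts in WT mice and 26 to 54 in KSR23 mice. Cpn2, the partner subunit of Cpn1, had 0 to 5 and 29 to 99 counts, C4bp, a cofactor of factor I, 0 to 6 and 7 to 40, and Itgax, a chain of a receptor for C3 fragments, 0 to 8 and 10 to 48.

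The genes around C4b, Cfb and C2 on chromosome 17 moved less than C4b and Cfb. C2, at a log2 fold change of 0.39, lay within the range of these neighbours. Of 8 neighbours 7 were tested, with 3 higher (Stk19 at a log2 fold change of 0.67, Ehmt2 at 0.42 and Nelfe at 0.29), Tnxb lower (-0.40, edgeR adjusted p = 0.0227) and 3 not called, where 31.0% of all genes tested were called either way. The Tnxb call was lost in 6 of 20 other settings, among them without WT replicate 5, KSR23 replicate 1 or KSR23 replicate 5. Nelfe ends 1 base from the end of Cfb on the other strand. Across the 10 mice, the genes most like C3 in log2 CPM were St3gal4, Clu, H2-T23, Gbp2 and Clca1 (Pearson r 0.983 to 0.989), and those most like Cd55 were Gstt3, Angptl1, 4930509E16Rik, Wdr61 and Pde8b (r 0.97 to 0.979). These correlations hold the difference between the groups and are given as a description. Of 8 response genes, 7 were higher, where 16.2% of all genes tested were higher. Among these 7 were Socs3 at 2.65 and Stat3 at 1.12, and Saa3 was not called (edgeR adjusted p = 0.0963).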
